A study of Homo sapiens with 8 samples.

Results

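The HBS1L and MYB locus on chromosome 6 was examined for chromatin accessibility in HUDEP-2 cells, an immortalised human erythroid progenitor line derived from umbilical cord blood. Accessible sites were those called in ATAC-seq, in which the transposase Tn5 inserts sequencing adapters into open DNA. All peaks with a summit at chr6:135270000-135560000 (hg19) were taken from each of the 4 sgControl lists, and peaks that shared at least 1 bp were merged into a region. This gave 20 regions, of 43654 merged regions over the whole genome. Both groups carried the sgControl (scramble) construct, had been deprived of growth factors for 5 h in StemSpan SFEM with albumin, and were then kept for 1 h with SCF (50 ng/ml) or with PBS. SCF is the ligand of the Kit receptor, and the comparison asked how acute Kit signaling altered accessibility. Each group had 2 libraries of 50000 cells, which the methods of the study describe as biological duplicates. The methods describe lentiviral constructs with KRAB-dCas9 for CRISPR interference. The sgControl cells were transduced cells of a single immortalised line, so both groups share that background and a response of primary progenitors was not measured. The 4 sgEGR1 samples of the series were not analysed here.

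MYB encodes a transcription factor that hematopoietic progenitors need for proliferation and whose level falls as erythroid cells mature. HBS1L, transcribed away from MYB in the opposite direction, encodes a GTPase that acts with PELO in rescuing stalled ribosomes. The stretch between both genes holds erythroid enhancers that are known to bind GATA1, TAL1, LDB1 and KLF1 and to contact the MYB promoter, and common variants there are associated with fetal hemoglobin level and red cell traits.

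The lists held 29269 to 33616 peaks per library. Read totals are unknown, but the number of fragments stacked at each summit (the pileup) could be worked out from the deposited values, and background pileups placed the depth of the libraries at 0.843 to 1.42 relative to PBS replicate 1. The lowest pileup that was called was 5 to 7 fragments, so a missing call means only that no peak passed at that depth. The erythroid identity was checked at start sites: the erythroid markers GATA1, KLF1, TAL1, EPOR, SLC4A1, TFRC and KIT had a peak in all 4 libraries, while ALAS2 had a peak only in PBS replicate 2 and HBG1 had none. Of markers for other cells, lymphoid CD8A, 2 of 5 myeloid (CSF1R, CD14) and COL1A1 and EPCAM, of 4 non-blood genes with a start site in the annotation, had a peak in all 4. MPO, ITGAM, CD3E, CD79A, MS4A1, ALB and CDH5 had none.

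Regions are called here by the distance of their summit from the MYB start site (chr6, position 135502446, + strand), in kb, with negative values on the HBS1L side. MYB spans 135502446 to 135540311. HBS1L spans 135281516 to 135424194 on the - strand, with its main start site at 135375960, at −126.5 kb from MYB, and the start of its longest transcript at −78.3 kb. The regions from −119.9 to −84.0 kb therefore lie in an intron of the longest HBS1L transcript only, and those from −71.0 to −7.4 kb lie between the genes. A stretch of sequence that takes in the summit is printed for 6 regions on which the results turn. These are the intergenic region of highest fold enrichment (−71.0 kb) and those with a rank gain (−91.9 kb), a rank loss (−7.4 kb) or a call only with SCF (−87.7 kb). The others are the only regions with an AP-1 word close to the summit (−107.2 and +10.5 kb). Each stretch has 299 bases of GRCh37 (hg19), + strand, 5′ to 3′. The summit is base 150, except in the stretches of −107.2 kb (base 122) and −71.0 kb (base 56). Capitals mark GATA words (AGATAA or TGATAA) and AP-1 words (TGANTCA) on either strand.
−107.2 kb, chr6:135395147-135395445: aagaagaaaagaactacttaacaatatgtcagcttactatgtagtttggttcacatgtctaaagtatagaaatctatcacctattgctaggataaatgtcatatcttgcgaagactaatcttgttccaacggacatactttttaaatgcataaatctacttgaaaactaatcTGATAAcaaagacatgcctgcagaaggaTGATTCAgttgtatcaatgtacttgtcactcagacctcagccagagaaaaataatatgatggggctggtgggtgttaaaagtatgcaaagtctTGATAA
−91.9 kb, chr6:135410382-135410680: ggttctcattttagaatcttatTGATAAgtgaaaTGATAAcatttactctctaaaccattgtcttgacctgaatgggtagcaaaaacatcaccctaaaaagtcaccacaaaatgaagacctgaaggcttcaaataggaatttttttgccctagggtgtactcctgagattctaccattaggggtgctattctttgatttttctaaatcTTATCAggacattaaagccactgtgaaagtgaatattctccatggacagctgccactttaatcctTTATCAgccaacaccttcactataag
−87.7 kb, chr6:135414558-135414856: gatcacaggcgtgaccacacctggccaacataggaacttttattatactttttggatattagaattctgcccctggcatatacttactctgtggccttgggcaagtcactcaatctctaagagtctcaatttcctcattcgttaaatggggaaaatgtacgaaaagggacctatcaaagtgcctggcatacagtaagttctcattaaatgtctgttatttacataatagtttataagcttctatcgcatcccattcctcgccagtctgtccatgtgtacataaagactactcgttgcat
−71.0 kb, chr6:135431348-135431646: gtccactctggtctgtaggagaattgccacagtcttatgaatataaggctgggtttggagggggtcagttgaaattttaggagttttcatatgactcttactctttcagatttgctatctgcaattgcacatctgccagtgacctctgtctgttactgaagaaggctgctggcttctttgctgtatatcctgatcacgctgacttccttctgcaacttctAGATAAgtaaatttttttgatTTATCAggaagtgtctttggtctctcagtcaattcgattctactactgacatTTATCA
−7.4 kb, chr6:135494850-135495148: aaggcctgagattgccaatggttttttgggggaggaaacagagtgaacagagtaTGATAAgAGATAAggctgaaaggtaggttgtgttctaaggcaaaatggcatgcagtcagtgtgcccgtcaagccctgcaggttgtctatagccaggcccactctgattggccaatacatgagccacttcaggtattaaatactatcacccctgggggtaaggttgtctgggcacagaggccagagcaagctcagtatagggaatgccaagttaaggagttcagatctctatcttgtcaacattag
+10.5 kb, chr6:135512796-135513094: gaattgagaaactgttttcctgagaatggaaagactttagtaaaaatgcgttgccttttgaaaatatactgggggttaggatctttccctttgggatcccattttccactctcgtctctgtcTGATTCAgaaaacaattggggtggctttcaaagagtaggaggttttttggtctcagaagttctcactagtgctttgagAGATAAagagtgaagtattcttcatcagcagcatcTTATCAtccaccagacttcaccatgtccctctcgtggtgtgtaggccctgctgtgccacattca
GATA words stood in 5 of these stretches, with 2 in the stretch of −107.2 kb, 4 in that of −91.9 kb, 3 in that of −71.0 kb, 2 in that of −7.4 kb and 2 in that of +10.5 kb. The off-centre stretches of −107.2 and −71.0 kb each end on a GATA word, so their counts depend on where the stretch was placed. At −71.0 kb the words began 165, 186 and 238 bp beyond the summit. The stretch of −87.7 kb held neither a GATA nor an AP-1 word. Within 100 bp of the summit the GATA words numbered 1 at −107.2 kb, 1 at −91.9 kb, 0 at −71.0 kb, 2 at −7.4 kb and 2 at +10.5 kb. Shares over all regions were computed only for fixed distances from the summit.

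Each peak carries a fold enrichment, the ratio of its summit pileup to the local background after a pseudocount of 1 was added to both. Each peak was given a percentile rank by this value within its own list, with 100 the highest. Of the 20 regions, 12 (60%) were called in all 4 libraries, against 51.3% of all merged regions. A further 1 was called in 3 libraries, 3 in 2 libraries and 4 in 1 library, where 26.5% of all merged regions were called in 1 library only. The share of 60% depended on the merging rule. When summits within 150 bp were chained instead, the locus split into 27 regions, and 8 had a peak in every library. Values of a pair of libraries are given in the order replicate 1, replicate 2. The locus held 15 and 16 peaks with PBS and 14 and 18 with SCF. The SCF libraries thus lay on both sides of the PBS libraries. The mean was 15.5 ± 0.707 (SD, n = 2) with PBS and 16 ± 2.83 (SD, n = 2) with SCF, a difference of 0.5 (two-sided exact permutation test, p = 1). Without SCF replicate 2 the difference was −1.5. With 2 libraries against 2, this test cannot give a p under 0.333. Peaks covered 8.57 and 11.4 kb of the 290 kb examined with PBS and 8.63 and 10.6 kb with SCF.

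**Figure D1:**
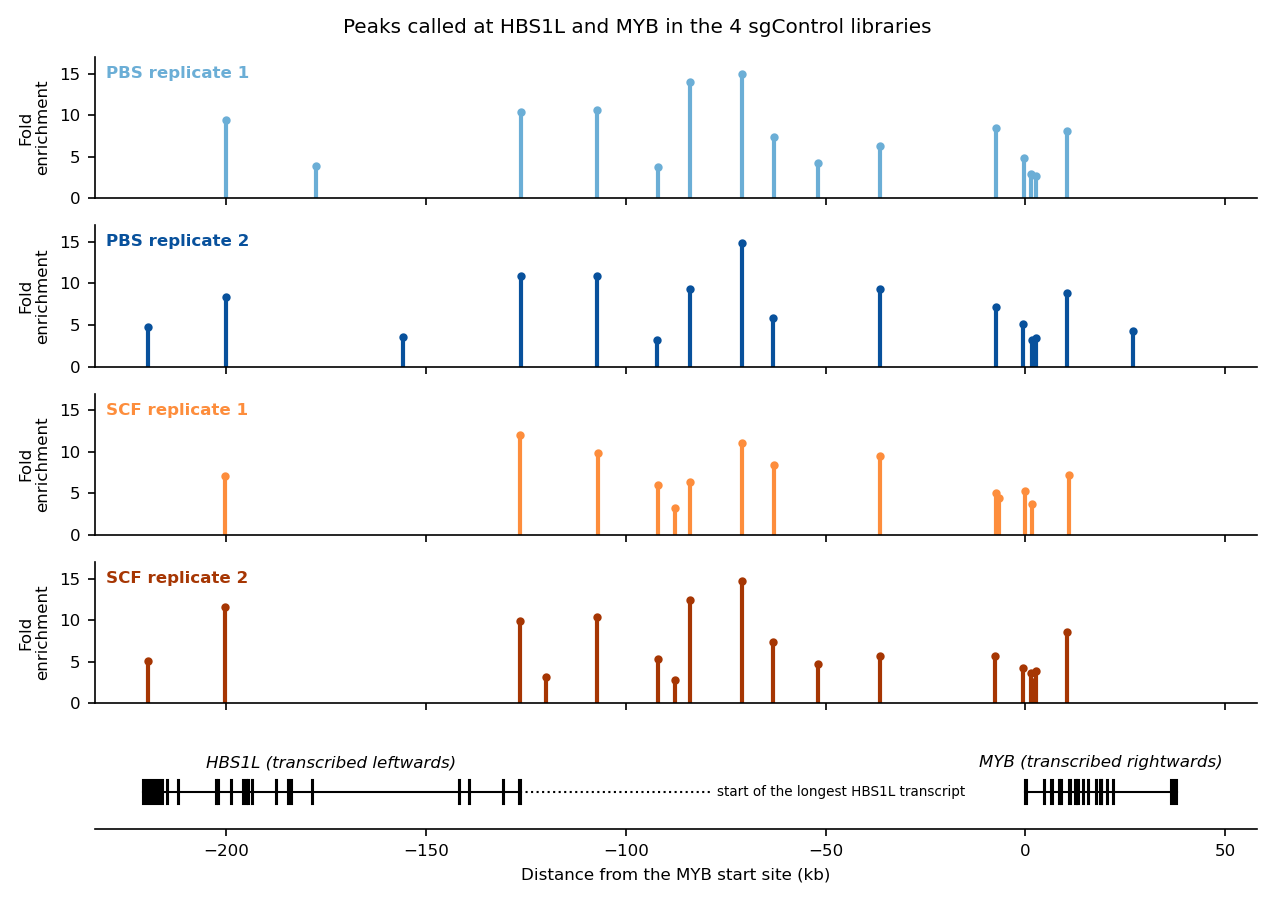
Fold enrichment of each peak (y axis) against the distance of its summit from the MYB start site in kb (x axis) in each of the 4 sgControl libraries, over the exons (boxes) of HBS1L and MYB. The tallest peak lies at −71.0 kb in 3 libraries and at the HBS1L start (−126.4 kb) in SCF replicate 1, and the peaks at and just after the MYB start are among the lowest.

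Only 2 of the 20 regions lay within 1 kb of an annotated start site, those over the HBS1L and MYB starts. The other 18 were distal, of which 10 were called in all 4 libraries, against 35.3% of all distal regions. Between both start sites lay 10 distal regions, 7 of them called in all 4. The nearest regions outside the examined stretch lay at −240.0 kb, in an intron of ALDH8A1, called in 1 library, and at +73.4 kb, called in 2 libraries. The outermost members were at −219.8 kb, in the untranslated part of HBS1L and called in 2 libraries, and at +26.9 kb, in an intron of MYB and called in 1. The locus was low in GC, with a median of 42.8% within 100 bp of the summit compared with 54.2% over all regions.

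The HBS1L start was among the most accessible sites of the locus and its values with and without SCF overlapped. The region (chr6:135375462-135376630, also covering the start of the noncoding gene ENSG00000232876) had a fold enrichment of 10.4 and 10.8 with PBS and of 11.96 and 9.88 with SCF. The SCF libraries gave the highest and the lowest of these 4 values. Its ranks were 73.9 and 78.3 with PBS and 81.6 and 73.3 with SCF. By summit pileup it was the highest of the 20 regions in each library, with 104 and 177 fragments with PBS and 112 and 97 with SCF. A limma fit of log2 fold enrichment, made on the 22398 regions with a call in each library, gave a change with SCF of 0.03 (SE 0.16, adjusted p = 0.984).

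By fold enrichment, the most accessible region of the intergenic stretch was at −71.0 kb (chr6:135431219-135431830), whose sequence is printed above. It had a fold enrichment of 15.0 and 14.9 with PBS and of 11.1 and 14.8 with SCF. SCF replicate 1 was the low library, and SCF replicate 2 lay just below both PBS values. Its ranks were 94.1 and 94.6 with PBS and 76.7 and 95.1 with SCF, so that the rank intervals of both treatments overlapped. Its mean rank over the libraries was 90.1, and 3.99% of distal regions called in all 4 libraries ranked at or above this. It was the top region of the locus in 3 libraries and came after the HBS1L start in SCF replicate 1. In the limma fit its log2 change with SCF was −0.20 (SE 0.18, adjusted p = 0.895).

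Second to it in PBS replicate 1 and SCF replicate 2 was the region at −84.0 kb (chr6:135418105-135418855), in the intron of the longest HBS1L transcript. Its fold enrichment was 14.0 and 9.35 with PBS and 6.34 and 12.5 with SCF. The spread was within treatments: the ranks were 91.3 and 69.9 with PBS and 40.2 and 87.5 with SCF. A gap between SCF replicates as large as its 47.2 points occurred in 0.509% of all regions called in all 4 libraries, and a gap between PBS replicates as large as its 21.5 points in 9.69%. The pileup showed the same order, with 73 and 66 fragments with PBS but 25 and 69 with SCF. With this spread the SE of the log2 change equalled its size, at −0.34 ± 0.34 (limma adjusted p = 0.913).

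The region at −107.2 kb (chr6:135394909-135395750), which carries both an AP-1 and a GATA word near its summit, had the narrowest range of ranks among the 3 distal regions of highest mean rank. Its fold enrichment was 10.6 and 10.9 with PBS and 9.81 and 10.3 with SCF. Both SCF values lay below both PBS values, but by rank the treatments overlapped, at 74.9 and 78.7 with PBS and 69.1 and 76.2 with SCF. Its log2 change was −0.08 (SE 0.14, limma adjusted p = 0.953).

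At −36.3 kb (chr6:135465985-135466531), between the genes, each treatment had 1 high and 1 low library. The fold enrichment was 6.29 and 9.38 with PBS and 9.54 and 5.72 with SCF, from pileups of 16, 45, 29 and 18 fragments. The ranks of 40.9 and 70.0 with PBS enclosed the SCF replicate 1 rank of 67.3 but not the SCF replicate 2 rank of 37.7. Replicate gaps of 29.1 points (PBS) and 29.5 points (SCF) were reached by 3.84% and 5.28% of all regions. Averaged over replicates the treatments were near each other, with a log2 change of −0.06 (SE 0.29, limma adjusted p = 0.987).

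At −62.9 kb (chr6:135439025-135439907) both SCF ranks exceeded both PBS ranks by a narrow margin. The fold enrichment was 7.396 and 5.83 with PBS and 8.42 and 7.391 with SCF, so that SCF replicate 2 and PBS replicate 1 were nearly equal. The ranks were 52.5 and 40.7 with PBS and 59.1 and 55.1 with SCF, a gap of 2.55 points between the nearest libraries. The summit pileup was 20 fragments in 3 libraries and 19 in SCF replicate 1. Its log2 change was 0.25 (SE 0.18, limma adjusted p = 0.848).

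The region at −91.9 kb (chr6:135410151-135410718), in the intron of the longest HBS1L transcript, had the largest difference toward SCF. Its fold enrichment was 3.72 and 3.14 with PBS and 5.94 and 5.26 with SCF. Both SCF libraries were above both PBS libraries, and the groups did not overlap. The ranks were 5.82 and 2.64 with PBS (mean 4.23 ± 2.25, SD, n = 2) and 35.4 and 31.0 with SCF (33.2 ± 3.12, SD, n = 2), with 25.1 points between the nearest libraries. This was the only region of the locus to meet the rank gain rule (at least 10 points between the nearest libraries of the treatments), which 2.55% of all regions called in all 4 libraries met.

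The number of fragments behind these values was low. The summit pileup at −91.9 kb was 11 and 13 fragments with PBS and 19 and 16 with SCF. Divided by the genome-wide background of each library, it was 10.5 and 8.67 with PBS and 20.1 and 18.1 with SCF, again without overlap. The peak was 244 and 386 bp wide with PBS and 544 and 536 bp with SCF. The summit in PBS replicate 2 lay 380 bp from the farthest of the others, at the edge of the peak that the SCF libraries called. The quantile-normalised log2 change was 0.69 (SE 0.16, 95% interval 0.31 to 1.06), or 1.61-fold, with an unadjusted p of 0.00338 and an adjusted p of 0.705 in limma. It was the 84th smallest p of the 22398 regions and did not pass the threshold. The rank gain call was lost with −log10 q of at least 5, with the same number of peaks per list and with summits chained within 150 bp, where the region was no longer called in all 4 libraries.

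A call made only with SCF was seen at −87.7 kb (chr6:135414642-135414932), close to the former. It was the only region of the 20 called in both SCF and neither PBS library, a pattern shown by 1.65% of all merged regions. No region of the locus was called in both PBS and neither SCF library, against 2.37% overall. The SCF peaks were weak, with a fold enrichment of 3.23 and 2.74 and ranks of 1.77 and 0.521, near the bottom of their lists. The pileups of 15 and 16 fragments ranked higher, at 32.6 and 41.1, and stood on a local background of 4.18 and 5.88 times the genome-wide value. No test was run for a region without a value in the PBS lists, and with the same number of peaks kept per list the SCF-only count was 0.

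**Figure D2:**
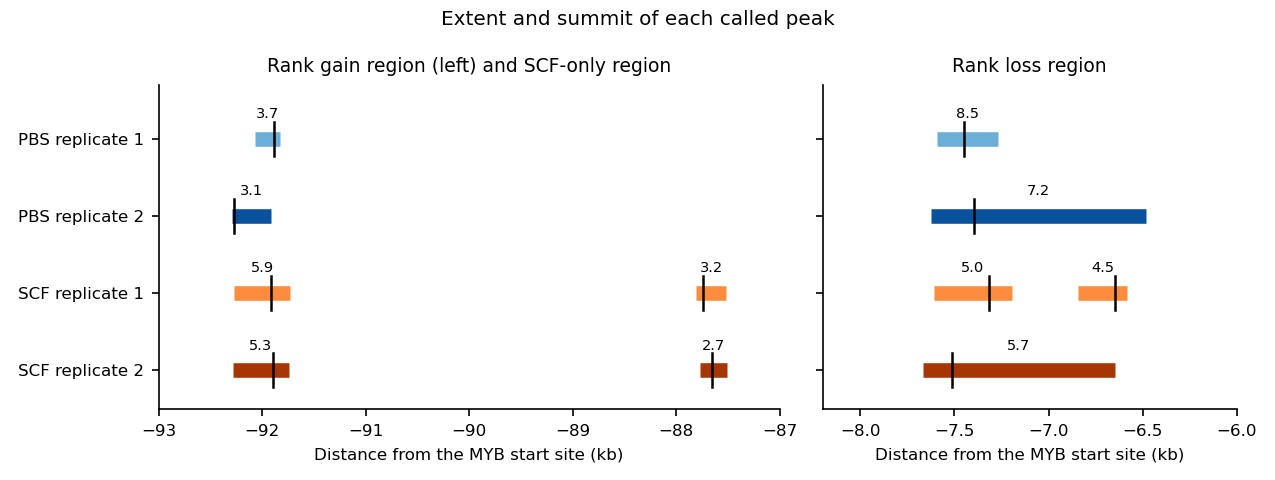
Extent (bars) and summit (black lines) of each peak by library, against distance from the MYB start site in kb, with the fold enrichment above each bar. At −91.9 kb the SCF peaks were wider and higher than the PBS peaks, at −87.7 kb only the SCF libraries had a peak, and at −7.4 kb the SCF values were lower.

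The opposite difference was seen at −7.4 kb (chr6:135494777-135495962), the intergenic region nearest to MYB. The fold enrichment was 8.45 and 7.17 with PBS and 5.01 and 5.73 with SCF. Both SCF libraries were below both PBS libraries. The ranks were 61.0 and 54.3 with PBS (57.6 ± 4.69, SD, n = 2) and 22.01 and 37.8 with SCF (29.9 ± 11.2, SD, n = 2), with 16.54 points between the nearest libraries. It was the only region of the locus to meet the rank loss rule, which 3.04% of all regions called in all 4 libraries met.

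The summit pileup at −7.4 kb was 23 fragments in each PBS library and 13 and 12 with SCF. Over the genome-wide background the difference was smaller, at 21.99 and 15.3 with PBS and 13.8 and 13.6 with SCF. In SCF replicate 1 the region was split into 2 peaks, of which the stronger stood for it. The quantile-normalised log2 change was −0.56 (SE 0.16, 95% interval −0.94 to −0.17), which is 0.680-fold, with an unadjusted p of 0.0111 and an adjusted p of 0.705 in limma, the 327th smallest p. It did not pass the threshold, and the rank loss call was lost when 20 points were required between the nearest libraries.

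The MYB start itself was weakly enriched over a high local background. The region (chr6:135501609-135502634, −0.6 kb) had a fold enrichment of 4.82 and 5.10 with PBS and 5.27 and 4.23 with SCF, and ranks of 21.1 and 30.5 with PBS and 26.6 and 14.1 with SCF. The SCF libraries gave the highest and the lowest fold enrichment, and the groups overlapped. The summits of the libraries lay up to 562 bp apart, so the values were read at different points of the region. By pileup the site ranked far higher, at 68.7 and 74.7 with PBS and 70.4 and 67.2 with SCF, from 43, 65, 45 and 35 fragments. The local background at this site was 7.77 to 8.49 times the genome-wide value, where the median peak had 2.02 to 2.46 times. Its log2 change was −0.09 (SE 0.17, limma adjusted p = 0.960).

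Just after the MYB start, in an intron, the region at +1.6 kb (chr6:135503709-135504578) had a fold enrichment of 2.94 and 3.23 with PBS and 3.76 and 3.61 with SCF. Both SCF ranks, 5.59 and 5.47, lay above both PBS ranks, 1.03 and 3.65, with 1.82 points between the nearest libraries. As at the start site, the pileups of 25 and 41 fragments with PBS and 32 and 30 with SCF stood on a local background of 7.49 to 8.58 times the genome-wide value. Its log2 change was 0.22 (SE 0.15, limma adjusted p = 0.837). Close by, the region at +2.6 kb was called in both PBS libraries and in SCF replicate 2, and not in SCF replicate 1.

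Further into MYB, the region at +10.5 kb (chr6:135512677-135513928), in an intron, was the strongest within the gene. Its fold enrichment was 8.12 and 8.90 with PBS and 7.16 and 8.55 with SCF, and the treatments overlapped. Its summits lay up to 430 bp apart between libraries. The log2 change was −0.12 (SE 0.16). At the other end of the locus, in an intron of HBS1L, the region at −200.3 kb (chr6:135301698-135302580) had a fold enrichment of 9.38 and 8.42 with PBS and 7.04 and 11.6 with SCF. Here the SCF libraries gave the lowest and the highest value, and the log2 change was 0.04 (SE 0.25).

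**Figure D3:**
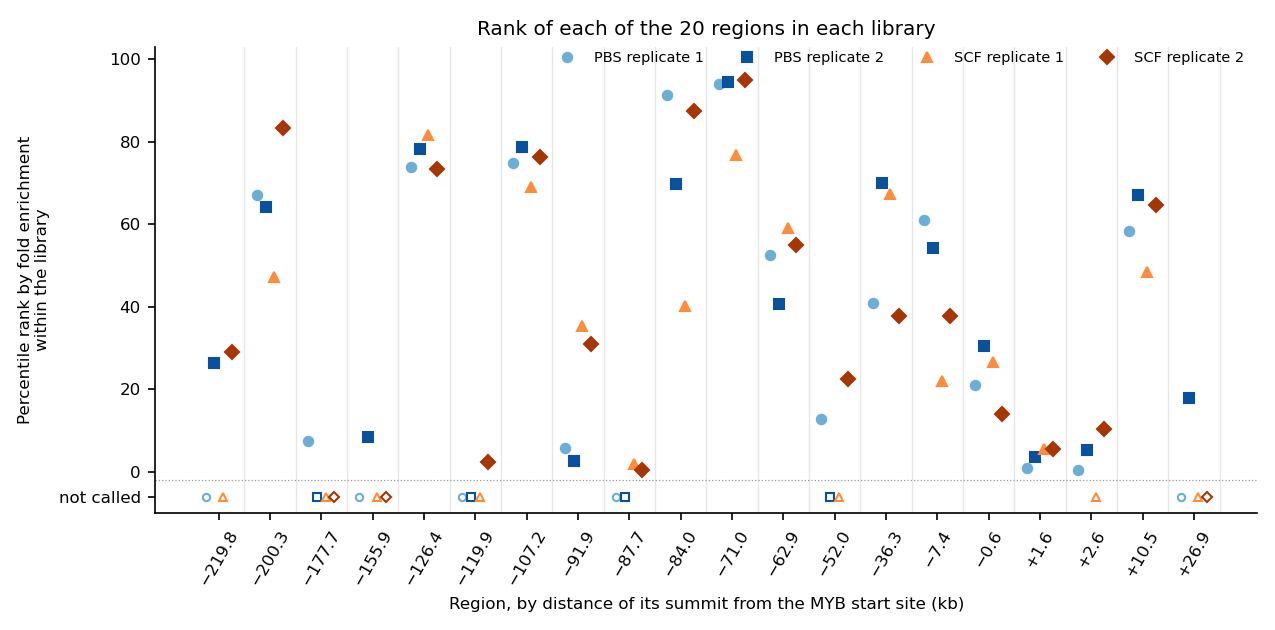
Percentile rank by fold enrichment within each library (y axis) of the 20 regions, ordered by distance of the summit from the MYB start site (x axis), with open symbols for libraries without a call. The −91.9 kb region has both SCF symbols above both PBS symbols by 25.1 points and the −7.4 kb region has both below by 16.54 points, while at −84.0 kb the SCF replicates lie 47.2 points apart.

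The remaining members were weak and were not called in all 4 libraries. The regions at −219.8 kb (PBS replicate 2 and SCF replicate 2) and at −52.0 kb (PBS replicate 1 and SCF replicate 2) were each called in 1 library per treatment. The 4 regions called in a single library were at −177.7 kb (PBS replicate 1), −155.9 and +26.9 kb (PBS replicate 2) and −119.9 kb (SCF replicate 2). Their pileups were 10, 9, 11 and 5 fragments and their ranks 7.42, 8.45, 17.9 and 2.46.

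By rank, 3 of the 12 regions called in all 4 libraries had both SCF values above both PBS values, namely those at −91.9, −62.9 and +1.6 kb, where 16.0% of all such regions did. Both SCF values were below both PBS values in 1 region, at −7.4 kb, against 19.3% overall. The other 8 overlapped. Over the 12 regions the mean rank was 53.5 and 54.5 with PBS and 48.3 and 55.1 with SCF. SCF replicate 1 was the low library and SCF replicate 2 the high one. The group means were 54.0 ± 0.737 (SD, n = 2) and 51.7 ± 4.83 (SD, n = 2), a difference of −2.33 points (two-sided exact permutation test, p = 1).

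In limma, 0 of the 12 regions and 0 of the 22398 passed an adjusted p of 0.05, and the lowest adjusted p over all regions was 0.705. With 2 libraries per group and only regions called in all 4 lists, 0 calls do not show that accessibility was unchanged. The study used another test (MAnorm) and reported sites with increased and sites with decreased accessibility after SCF. At an unadjusted p under 0.05, 815 regions (3.64%) were higher and 704 (3.14%) lower with SCF, and the 12 regions held 1 of each, at −91.9 and −7.4 kb. The median log2 change of the 12 was −0.07 and that of all regions was −0.00275. Of the 12, 5 had a value above 0 and 7 below. The median size of the change was 0.159 in the 12 regions and 0.129 over all.

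**Figure D4:**
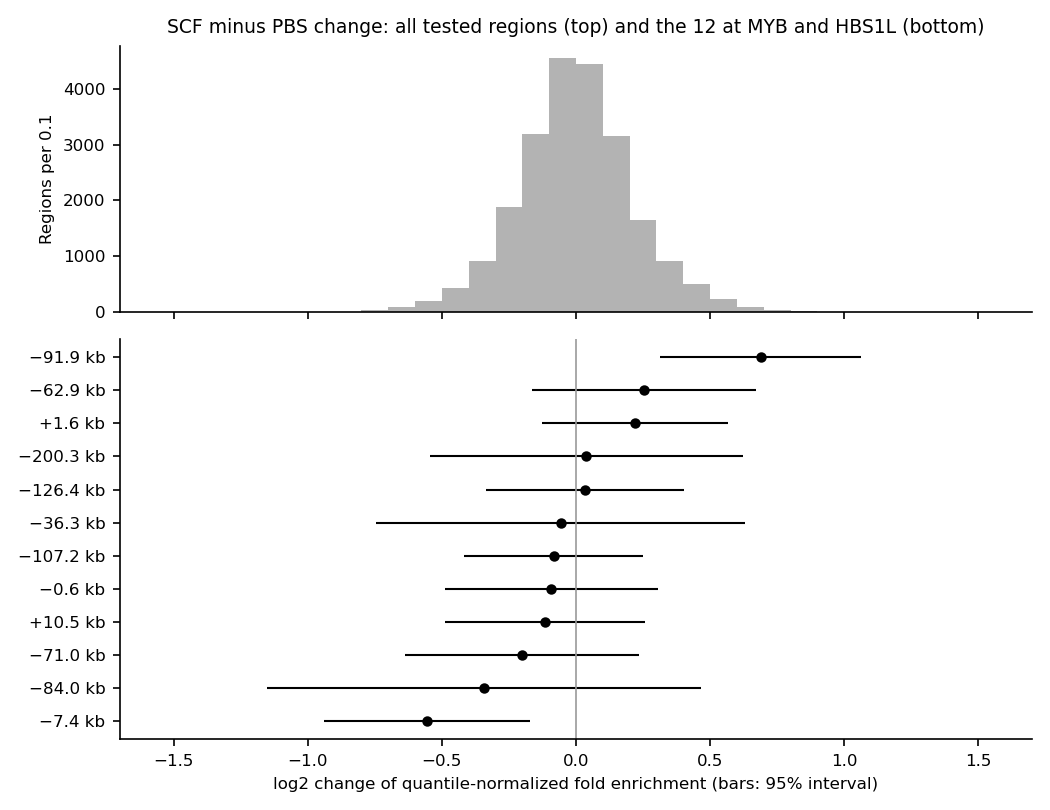
Top, number of regions per 0.1 of log2 change (SCF minus PBS) among the 22398 tested; bottom, the log2 change of the 12 regions at MYB and HBS1L with 95% intervals from limma, not adjusted for the number of regions. The intervals of the −91.9 kb region (0.31 to 1.06) and the −7.4 kb region (−0.94 to −0.17) leave out 0, and those of the other 10 include it.

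SCF replicates differed from each other at this locus about as much as libraries of different treatment did. The median rank difference of the 12 regions was 5.53 points between the PBS libraries (6.53 over all regions) but 14.1 points between the SCF libraries (7.45 over all regions). For a PBS and an SCF library it ranged from 4.15 points (PBS replicate 1 and SCF replicate 2) to 17.3 points (PBS replicate 2 and SCF replicate 1), with 6.80 to 7.39 points over all regions. Without SCF replicate 1, the difference of the mean rank was 1.57 points in place of −2.33.

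The order of the regions depended on the measure. Ranked by summit pileup, the regions at −0.6, +1.6 and +2.6 kb moved from the lower part of the list to its upper part, as the plot of both ranks shows. The −71.0 kb region, with a mean pileup rank of 69.6, moved below the HBS1L start (92.8), −84.0 kb (73.9), +10.5 kb (71.0) and the MYB start (70.2). The regions with the widest disagreement, −0.6, +1.6, +2.6 and −87.7 kb, had a local background of at least 4 times the genome-wide value in each library that called them, which applied to 27.2 to 32.2% of all peaks. The HBS1L start had the highest local background of the locus, 8.66 to 10.3 times the genome-wide value, and ranked high by both measures, with a mean rank of 92.8 by pileup and 76.8 by fold enrichment.

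**Figure D5:**
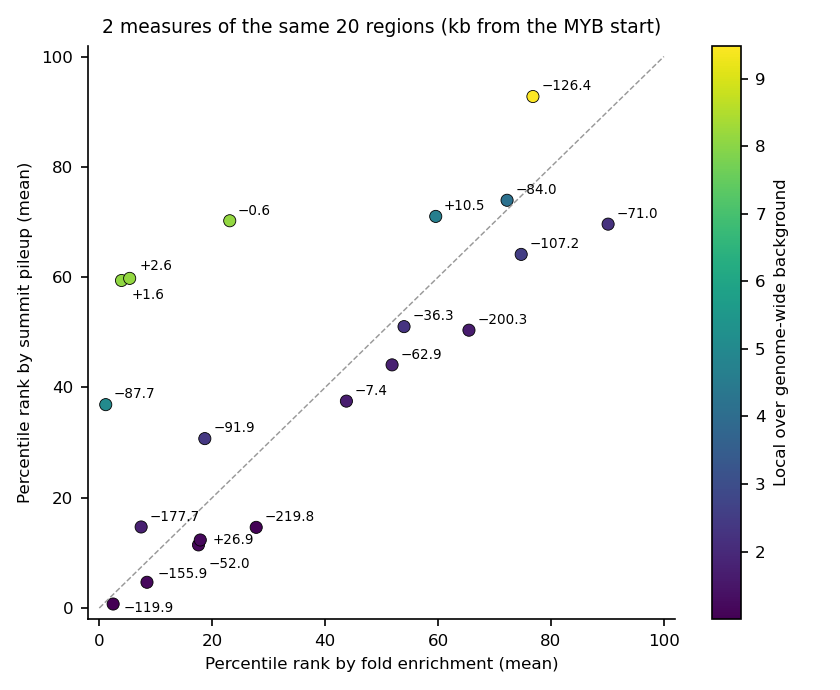
Mean percentile rank by summit pileup (y axis) against mean percentile rank by fold enrichment (x axis) of the 20 regions, each over the libraries that called it, with color for the ratio of local to genome-wide background and a dashed line for equal ranks. The MYB start (−0.6 kb) and the regions at +1.6, +2.6 and −87.7 kb lie well above the line.

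Words known from erythroid and signal-dependent factors were sought on either strand within 100 bp of each summit. The GATA words AGATAA or TGATAA occurred in 7 of the 20 regions (35%), against 25.4% of all regions and 36.1% of distal regions. The AP-1 word TGANTCA occurred in 2 (10%), at −107.2 and +10.5 kb, against 8.43% of all and 11.4% of distal regions. The EGR word GCGTGGG occurred in 0, against 3.80% of all and 2.11% of distal regions. Over the whole length of the regions it was found once, at +1.6 kb.

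The E-box CAGNTG occurred in 9 regions (45%; 42.8% of all and 47.5% of distal regions) and the KLF word CCNCNCCC in 3 (15%; 38.2% of all and 26.6% of distal regions). The RUNX word TGTGGT occurred in 1 region (12.4% of all and 15.5% of distal regions), as did the ETS word GGAAGT (13.3% and 12.2%). The STAT word TTCNNNGAA occurred in 0 (5.09% and 5.96%). Over whole regions, which differ in length, GATA words were most numerous at −200.3 kb (6) and −62.9 kb (5), followed by −126.4, −91.9, −7.4 and +10.5 kb (4 each). An AP-1 word stood anywhere in the regions at −107.2, −91.9, −62.9 and +10.5 kb. A word of this kind is a match of letters, and binding was not measured.

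Genes of the same pathway were read from the same fit at their start sites. The list held MYB and its relatives MYBL1 and MYBL2, HBS1L and its partner PELO, the enhancer-binding factors GATA1, TAL1, LDB1, LMO2, KLF1 and RUNX1, the coactivators CREBBP and EP300, the MYB targets KIT, CCNB1 and BCL2, and the fetal globin repressors BCL11A and ZBTB7A. All 18 start sites had a peak in all 4 libraries, and 0 of 18 passed the limma threshold in either direction (lowest adjusted p 0.785, with 0 at an unadjusted p under 0.05). Their log2 changes ranged from −0.19 at KLF1 to 0.26 at MYBL1, with a median of −0.02, 7 above 0 and 11 below. Among 9747 regions over protein-coding start sites outside the locus, those over ART5, PELI2 and TNRC18 were nearest to the MYB start in their ranks over the 4 libraries, at Euclidean distances of 5.11, 6.16 and 6.79 points.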

How the data were processed

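ATAC-seq peak lists of 4 sgControl HUDEP-2 libraries (PBS and SCF, 2 each) were analysed. The authors sequenced paired ends and called peaks on each library separately, with replicates not pooled. The methods name the ENCODE ATAC-seq pipeline, and the submitters' processing notes name bcl2fastq, Bowtie2 and SAMtools. The peak caller and its settings are not given in the sources used here. The methods and processing notes name hg38, whereas the series description and list headers name hg19. With hg19 coordinates, 39.0% of all regions lay within 1 kb of an annotated start site, and hg19 was used. Peak names inside the lists carry other replicate numbers than the labels, and the labels were followed.

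The deposited fold enrichment is the ratio of summit pileup to local background, with the pseudocount given above added to both. The deposited −log10 p and −log10 q belong to each peak in its own list, and the whole-number score deposited by the authors was not used. All q-values were under 0.05. Values were not scaled between libraries by the authors. Summit pileups were recovered as the whole number from which the fold enrichment and a Poisson −log10 p both followed, which held within a relative error of 0.0001 for 100% of the peaks with −log10 p under 300.

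Peaks sharing at least 1 bp were merged, and the highest-ranked peak of a library stood for a region. A region was SCF-only if it had a peak in each SCF library and in no PBS library. Rank gain or loss needed at least 10 points between the nearest libraries. The test of the study (MAnorm) needs reads. Therefore limma 3.58.1 (R 4.3.3) was fitted to quantile-normalised log2 fold enrichment over the 22398 regions called in all 4 libraries. Benjamini-Hochberg adjustment was used, without a replicate block. The fit was also run on simulated data with the same spread for all regions. That run does not show how well changes are found at the differing spreads of these data. Regions called in fewer libraries had no test. Locus totals were compared by two-sided exact permutation tests. Gene models were those of GENCODE 44 on GRCh37.

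Regions named in full were those over both start sites, the 5 highest-ranked between them, every SCF-only, PBS-only, rank gain or rank loss region, and the 5 with the largest log2 change. Other named regions were singled out after their values were seen. The locus, gene lists and words were chosen with earlier results of these data known. Some marker genes of these lists are not reported here.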

Additional observations from a re-analysis of the deposited data

How the results depend on the processing

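In all alternatives tried, limma called 0 regions, in the locus and over the genome, with a lowest adjusted p of 0.597 to 0.882 and 1246 to 1929 regions at an unadjusted p under 0.05. The log2 change stayed above 0 at −91.9 kb (0.58 to 0.78 over 9 settings, adjusted p 0.597 to 0.882) and below 0 at −7.4 kb (−0.68 to −0.44 over 12 settings, adjusted p 0.597 to 0.944). Leaving out each library in turn, the log2 change ranged from −0.095 (without SCF replicate 1) to 0.17 at −126.4 kb, from −0.85 to 0.15 (without SCF replicate 1) at −84.0 kb, from −0.43 to 0.022 (without SCF replicate 1) at −71.0 kb, from −0.44 to 0.32 (without SCF replicate 2, with 0.22 without PBS replicate 2) at −36.3 kb and from −0.26 to 0.076 (without SCF replicate 2) at −0.6 kb, and so turned sign at each. With pileup in place of fold enrichment the sign turned at −126.4 kb (−0.035), −107.2 kb (0.0083) and −36.3 kb (0.026). Leaving out each library also gave a difference of −1.5 (without SCF replicate 2) to 2.5 peaks, a mean rank difference of −5.74 to 1.57 points (the latter without SCF replicate 1), 1 to 2 SCF-only regions (2 without SCF replicate 1, with −119.9 kb added), 0 to 2 PBS-only regions (2 without PBS replicate 1, 1 without PBS replicate 2 or SCF replicate 2), 1 to 2 rank gains (2 without PBS replicate 1, with −62.9 kb, or without SCF replicate 1, with −200.3 kb) and 1 to 4 rank losses. The 4 rank losses, at −200.3, −84.0, −71.0 and −7.4 kb, came without SCF replicate 2, where SCF replicate 1 alone stood for SCF. With −log10 q of at least 5, 13 regions were left, the rank gain count was 0, and the SCF-only region was the one at −91.9 kb. With the same number of peaks per list, the SCF-only and rank gain counts were both 0. The rank gain count was also 0 when summits within 150 bp were chained, since the PBS replicate 2 summit at −91.9 kb lay farther from the others. Chaining split the locus into 27 regions, and only 8 had a peak in every library. The rank loss count was 0 with a gap of 20 points. With replicate number as a block, limma called 0 regions (lowest adjusted p 0.7002). Only 2 pairs exist, and deviations of same-numbered replicates had a correlation of 0.0117 over 22398 regions, so the numbers were not taken to pair the libraries. With 250 bp searched on each side of the summit, 60% of the regions held a GATA word (41.4% of all regions). An E-box stood in 80% (73.5%), a KLF word in 35% (62.0%) and a RUNX or ETS word in 30% each (27.2% and 29.5%). An AP-1 word stood in 10% (17.9%), an EGR word in 5% (8.87%) and a STAT word in 0% (11.96%). Most regions of the locus were distal, and shares of distal regions are not given at 250 bp. The 250 bp shares therefore do not show an enrichment over distal regions. The difference in peaks was 0 with the same number of peaks per list and without PBS replicate 1. Among the values followed through the alternatives, no other turned sign, no adjusted p fell under 0.05, and no other count of regions moved by over 1.5 times. The log2 changes at −200.3 and +10.5 kb were not among these values. Among the regions named in full, the unadjusted p crossed 0.05 at −7.4 and −84.0 kb in settings that left a group with 1 library. Pileups of 11 to 19 fragments at −91.9 kb and 12 to 23 at −7.4 kb limit the precision of both.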
